A study of Mus musculus with 12 samples.

Results

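The genes described here mark the endothelium, the cell layer that lines blood vessels, and the cells that lead a new vessel sprout. There were 10 of them among the 19938 genes measured, in quadriceps of mice aged 7 days, and all 10 were on the arrays, each with a single probe set. They were chosen by name, with earlier results of these data known. Apln, Esm1, Dll4 and Angpt2 stood for tip cells, and Aplnr, Kdr, Flt1, Cdh5, Pecam1 and Tek stood for endothelium in general. Total RNA of 12 C57Bl/6 mice was hybridized to 1 array each, of which 6 were labelled wildtype (WT) and 6 cofilin-2 null (KO). The null mice lacked Cfl2, the muscle form of the actin-binding protein cofilin, and their controls were WT littermates. The source texts read here do not say how the allele was made. The comparison asked which transcripts differ in muscle without cofilin-2. Values are log2 levels as deposited, and the number of arrays limits their precision.

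The targeted gene opposed the labels. Cfl2 had log2 levels of 12.31 to 12.43 on the 6 KO-labelled arrays and 4.92 to 7.71 on the 6 labelled WT. Directions below follow the deposited labels (KO-labelled minus WT-labelled), and the groups were left as labelled. For Cfl2, Ucp1 and Lep this is opposite to the direction in the text of the study. Were the titles of the groups exchanged, every direction given below would be reversed. Words such as higher, lower and rose therefore refer to the labels and not to the loss of cofilin-2. Ucp1 and Lep, both fat cell genes, were 2.75 ± 0.60 and 2.12 ± 0.36 (SE) higher on the KO-labelled arrays on the log2 scale. The labels give no sex, and the 3 measured Y-linked genes averaged 5.65 to 8.53 on the KO-labelled arrays and 4.80 to 8.52 on the WT-labelled ones. Of 21789 probe sets tested, 19.5% were higher and 12.4% lower on the KO-labelled arrays (limma, Benjamini-Hochberg adjusted over all of them). Higher calls were thus 61.1% of all calls, and 77.8% with each array centred on its median or 50.6% after quantile normalization. The calls in either direction numbered 6952, 7026 and 6655 in these fits. The 19.5% and 12.4% hold for the values as deposited, and counts given below under other settings have a different background. The array labelled WT6 stood apart in the genes described here, with the lowest value of its group for 7 of the 10. Muscle markers (Acta1, Ckm, Ttn, Mylpf and Tnnt3) averaged 12.98 to 13.24 over the 12 arrays.

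Vessels grow by sprouting. Hypoxic or growing tissue releases VEGF-A, which binds the receptor VEGFR2 (Kdr) on endothelial cells, and a cell with strong VEGF signal becomes the tip cell that leads the sprout. The tip cell presents the Notch ligand Dll4 to its neighbours and thereby keeps them as stalk cells, while VEGFR1 (Flt1) takes up VEGF and dampens its signal. Tip cells also release apelin (Apln), which acts on its receptor on nearby endothelium (Aplnr), the proteoglycan endocan (Esm1) and angiopoietin-2 (Angpt2), a ligand of the receptor Tie2 (Tek).

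The stretch upstream of the start site is shown for the 3 tip cell genes with a promoter window in the table used here, Apln, Dll4 and Esm1, which differed in how far they moved. That table, from RefSeq on the build GRCm38.p6, gave windows for 6 of the 10 genes (Apln, Esm1, Dll4, Kdr, Flt1 and Tek). The 250 bases before the start are printed 5′ to 3′ on the strand of the gene. Capitals mark the cores of sites for ETS factors, the family of the endothelial regulators Erg and Fli1, searched as CCGGAA and AGGAAG on both strands. The match in Apln reads as the reverse complement, and neither Dll4 nor Esm1 has one.
Apln (chrX:48034854-48035103, - strand): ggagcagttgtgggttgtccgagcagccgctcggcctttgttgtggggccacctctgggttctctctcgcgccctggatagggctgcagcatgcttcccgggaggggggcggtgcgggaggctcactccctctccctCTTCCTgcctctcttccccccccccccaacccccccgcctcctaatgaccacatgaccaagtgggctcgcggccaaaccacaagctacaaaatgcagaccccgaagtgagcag
Dll4 (chr2:119325534-119325783, + strand): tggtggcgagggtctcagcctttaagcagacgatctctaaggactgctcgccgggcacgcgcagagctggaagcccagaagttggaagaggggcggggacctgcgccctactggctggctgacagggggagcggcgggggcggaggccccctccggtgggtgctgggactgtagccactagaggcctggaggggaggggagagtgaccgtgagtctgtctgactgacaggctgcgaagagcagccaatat
Esm1 (chr13:113209409-113209658, + strand): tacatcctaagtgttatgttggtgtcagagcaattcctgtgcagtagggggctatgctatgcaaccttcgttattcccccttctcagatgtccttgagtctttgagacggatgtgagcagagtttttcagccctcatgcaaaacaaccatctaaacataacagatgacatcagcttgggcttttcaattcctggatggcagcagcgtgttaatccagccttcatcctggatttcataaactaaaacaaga

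An ETS core was found in 3 of the 6 windows (Apln, Kdr and Flt1) and in 45.2% of all 32851 promoter windows of the same length. For Kdr, Flt1 and Tek the window is set on a transcript start inside the annotated gene, and their sequences are not printed. The core of the hypoxia response element, searched as ACGTG and GCGTG on both strands, was found in 4 of the 6 (Esm1, Dll4, Kdr and Flt1) and in 43.8% of all. The core for RBPJ, the DNA-binding partner of Notch (TGGGAA), lay in 1 of the 6, that of Kdr, against 25.6% of all. The RBPJ match of Kdr overlaps a hypoxia match. The SOX core ACAAAG lay in 2, Apln and Tek, against 18.7%. A match describes these letters only, and no match says nothing about the factor.

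Of the 10 genes, 9 were higher on the KO-labelled arrays, 0 were lower and 1, Flt1, did not pass. Over all probe sets 19.5% were higher. As the 10 were chosen with earlier results of these data known, their counts are a description only. The median log2 difference of the 10 was 0.38, and that of all probe sets tested was -0.02. In 7 of the 10, every array labelled KO lay above every array labelled WT, which was so for 10.5% of all probe sets. In bulk muscle, more endothelial cells and more RNA of these genes per cell cannot be told apart.

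**Figure D1:**
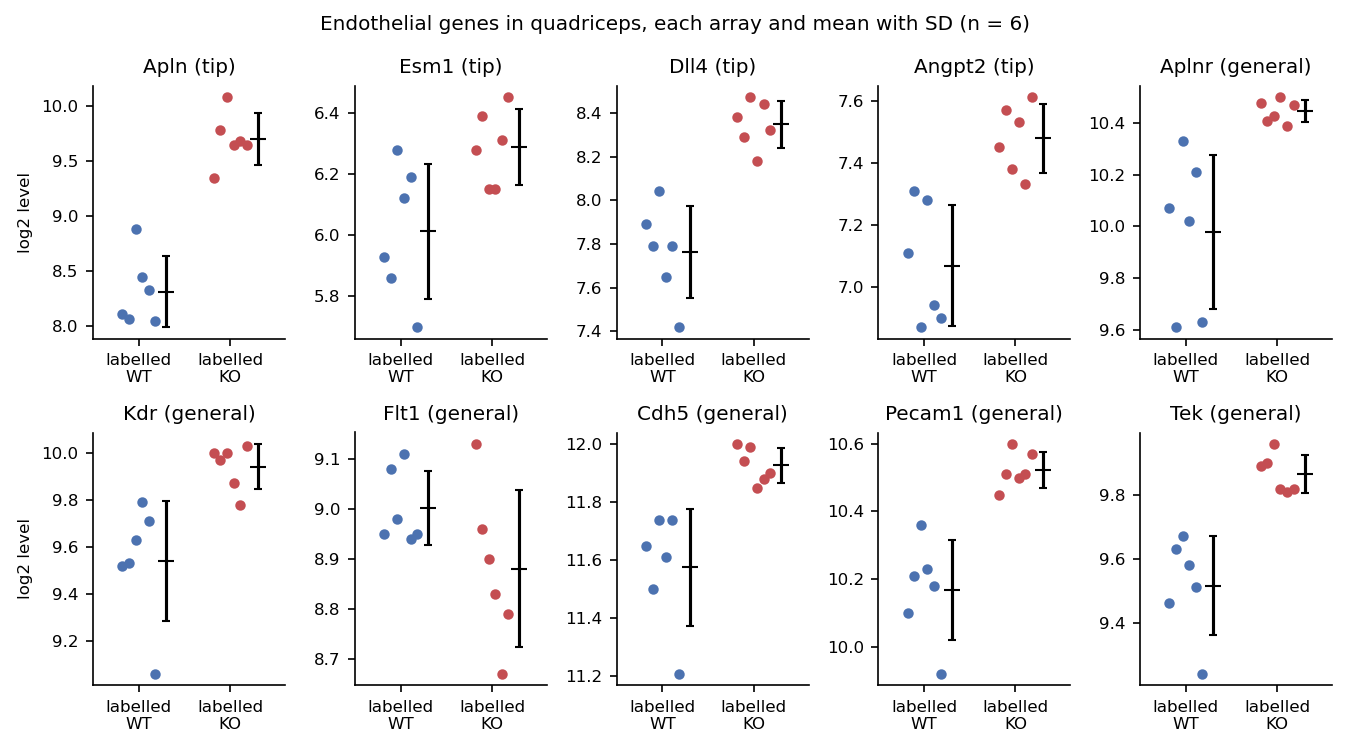
Log2 level of the 10 genes (vertical axes, each with its own range) on the WT-labelled (blue) and KO-labelled (red) arrays; points are arrays and bars give the mean and SD (n = 6). The groups do not overlap for Apln, Dll4, Angpt2, Aplnr, Cdh5, Pecam1 and Tek, and Flt1 is the gene whose mean is lower on the KO-labelled arrays.

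Among the tip cell genes, Apln had the largest difference. Its log2 levels were 9.35 at the lowest, 9.67 at the median and 10.08 at the highest on the KO-labelled arrays, and 8.04, 8.22 and 8.88 on the WT-labelled ones. The groups were 0.47 apart at their nearest arrays. Apln was 2.62-fold higher, with a log2 difference of 1.39 ± 0.14 (SE, limma adjusted p = 1.48e-05), which put it at rank 33 of the 19938 genes by signed difference, counted from the genes highest on the KO-labelled arrays. Were the labels exchanged, the same rank would count from the lowest. The gene is X-linked, and with the mean level of the Y-linked genes as a covariate its difference was 1.42 (adjusted p = 4.02e-06).

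Dll4, the ligand by which tip cells hold back their neighbours, followed with levels of 8.18, 8.35 and 8.47 (lowest, median and highest) on the KO-labelled arrays. On the WT-labelled ones it lay at 7.42, 7.79 and 8.04. It was 1.5-fold higher (log2 difference 0.58 ± 0.09 SE, limma adjusted p = 0.000243), without overlap of the groups. Angpt2, which loosens vessels by competing for Tie2, lay at 7.33, 7.49 and 7.61 on the KO-labelled arrays and at 6.87, 7.03 and 7.31 on the WT-labelled ones. Its groups were just apart, by 0.02, and the log2 difference was 0.41 ± 0.08 (SE, limma adjusted p = 0.00204).

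Esm1, which endothelial cells secrete under VEGF, had the smallest difference of the tip cell genes. It lay at 6.15, 6.30 and 6.45 on the KO-labelled arrays and at 5.70, 6.03 and 6.28 on the WT-labelled ones, and 3 of the 6 KO-labelled arrays lay above all WT-labelled ones. The log2 difference was 0.28 ± 0.09 (SE, limma adjusted p = 0.0358). The call was lost in 13 other settings, for example when WT6 was left out (0.21, adjusted p = 0.0687). Esm1 was also dim. Its means of 6.29 (KO-labelled) and 6.01 (WT-labelled) lay below 7.15, the median over the probe sets tested, so the fit without dim probe sets did not test it. The median difference of the 4 tip cell genes was 0.50, and 0.41 without Apln.

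The general endothelial genes other than Flt1 rose by like amounts, from 0.35 to 0.47 on the log2 scale. Cdh5, the cadherin of endothelial junctions, lay at 11.85, 11.92 and 12 on the KO-labelled arrays and at 11.21, 11.63 and 11.74 on the WT-labelled ones (log2 difference 0.35 ± 0.08 SE, limma adjusted p = 0.00385). Pecam1, an adhesion molecule of endothelium that platelets and some leukocytes also carry, lay at 10.45, 10.51 and 10.60 against 9.92, 10.20 and 10.36 (0.36 ± 0.06 SE, adjusted p = 0.000682). Both genes were thus about 1.28-fold higher, and in neither did the groups overlap.

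Tek, the receptor of the angiopoietins, lay at 9.81, 9.86 and 9.96 on the KO-labelled arrays and at 9.24, 9.55 and 9.67 on the WT-labelled ones, a log2 difference of 0.35 ± 0.06 (SE, limma adjusted p = 0.00105). Aplnr, the apelin receptor, was the most even gene of the 10 on the KO-labelled arrays, with levels of 10.39, 10.45 and 10.5 and an SD of 0.04. On the WT-labelled arrays it ranged from 9.61 to 10.33 with an SD of 0.30, and the log2 difference was 0.47 ± 0.11 (SE, adjusted p = 0.00502). The apelin ligand and receptor were thus both higher, and the difference of Apln and Aplnr within an array was 0.92 larger in the mean, with no overlap of the groups.

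The VEGF receptors parted. Kdr, the signalling receptor, lay at 9.78, 9.99 and 10.03 on the KO-labelled arrays and at 9.06, 9.58 and 9.79 on the WT-labelled ones, and 5 of the 6 KO-labelled arrays lay above all WT-labelled ones. Its log2 difference was 0.40 ± 0.10 (SE, limma adjusted p = 0.00748). Flt1, which binds VEGF more tightly and signals weakly, lay at 8.67, 8.87 and 9.13 on the KO-labelled arrays and at 8.94, 8.97 and 9.11 on the WT-labelled ones. Its log2 difference was -0.12 ± 0.07 (SE, adjusted p = 0.185), with a 95% interval from -0.27 to 0.02, so that the rise of the other general genes lies outside the interval of Flt1.

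Flt1 varied more on the KO-labelled arrays, where KO1 (9.13) stood above every array labelled WT and 4 arrays stood below all of them. Without KO1 the difference was -0.17 (adjusted p = 0.0365), and after quantile normalization it was -0.19 (adjusted p = 0.0400). The difference of Kdr and Flt1 within an array, whose zero point has no meaning between probe sets, was 0.87 to 1.24 on the KO-labelled arrays and 0.11 to 0.77 on the WT-labelled ones. The probe sets do not tell the membrane-bound from the soluble form of Flt1 in these data.

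**Figure D2:**
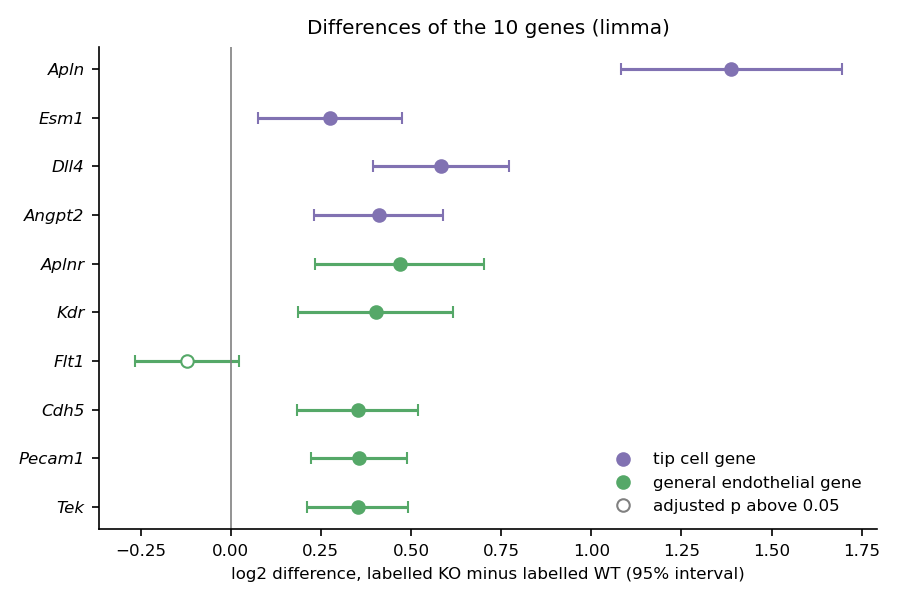
Log2 difference, labelled KO minus labelled WT, of the 10 genes with the 95% interval from limma (horizontal axis); filled points passed at an adjusted p of 0.05 and the open point did not. Apln stands at 1.39, the other tip cell genes between 0.28 and 0.58, and the general genes other than Flt1 between 0.35 and 0.47.

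The tip cell genes as a group differed by more than the general genes, mostly through Apln, and the negative difference of Flt1 added to this. The mean of the 4 tip cell genes was 0.66 higher and that of the 6 general genes 0.30 higher on the log2 scale. Their difference within each array shifted by 0.36, from -2.74 to -2.60 on the WT-labelled arrays to -2.46 to -2.23 on those labelled KO, without overlap. Without Apln the shift was 0.12, and 3 of the 6 KO-labelled arrays lay above the WT-labelled ones. The general mean, here and below, includes Flt1, whose difference was -0.12 where the other 5 had 0.35 to 0.47. Flt1 thus raises the shifts against that mean, and no score left out both Apln and Flt1. The median difference of the tip cell genes without Apln, 0.41, lay within the 0.35 to 0.47 of the general genes without Flt1. The shifts are scores over chosen genes, and no test was made of them.

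Taken singly against the mean of the 6 general genes, Apln shifted by 1.09 and Dll4 by 0.28, both without overlap of the groups. Angpt2 shifted by 0.11 and Esm1 by -0.03, with overlap. With the mean level of the 6 general genes as a covariate, Apln kept a log2 difference of 0.98 (limma adjusted p = 0.0130). Dll4 then had 0.29 (adjusted p = 0.153), Angpt2 0.36 (adjusted p = 0.162) and Esm1 -0.06 (adjusted p = 0.795). That covariate itself did not overlap between the groups, with 10.17 to 10.32 on the KO-labelled arrays and 9.67 to 10.12 on the WT-labelled ones.

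**Figure D3:**
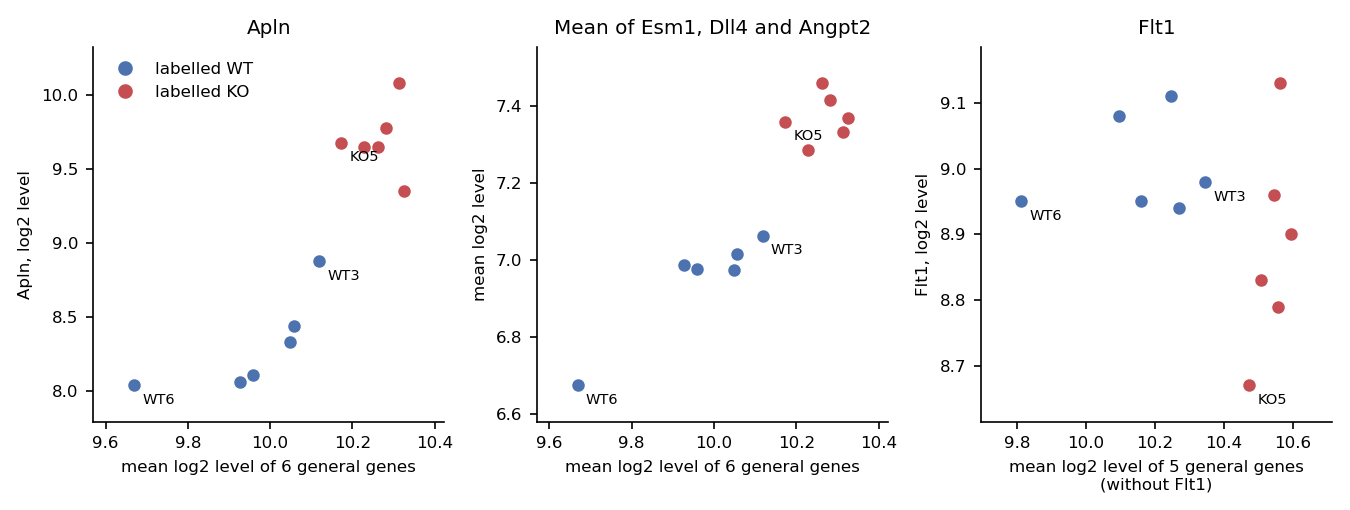
Level of Apln, of the mean of the other 3 tip cell genes and of Flt1 (vertical axes, log2) against the mean log2 level of the general endothelial genes (horizontal axes, without Flt1 in its own panel); each point is an array, blue for labelled WT and red for labelled KO. WT6 lies lowest on the horizontal axes at 9.67 over the 6 genes, and every red point lies above every blue point for Apln and for the mean of the other 3.

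Within the groups, several of the 10 genes moved together from array to array. After subtracting each group's mean, Pearson's r over the 12 arrays was 0.88 for Pecam1 with Tek, 0.85 for Kdr with Cdh5 and 0.82 for Aplnr with Cdh5. Angpt2 and Flt1 followed the others less, with r of -0.31 for Angpt2 with both Apln and Aplnr, and of 0.02 for Flt1 with Pecam1. Part of this rested on the array labelled WT6. Without it the first 3 values were 0.69, 0.45 and 0.79, while Cdh5 with Pecam1 went from 0.72 to 0.19, Cdh5 with Tek from 0.75 to 0.185 and Dll4 with Kdr from 0.51 to -0.28. Angpt2 then ran opposite to Apln (-0.49), Aplnr (-0.68), Cdh5 (-0.72) and Dll4 (-0.73). The arrays share the authors' normalization, and these correlations are a description with no p.

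The array labelled WT3 had the highest value of its group for 7 of the 10 genes, and it was also the array labelled WT with the highest Cfl2 (7.71). Among 10850 genes with some spread within the groups, the nearest to the mean of the 6 general genes was Lama4, a laminin chain of vessel basement membrane (r = 0.95, and 0.92 without WT6), followed by Rasl12 (0.95) and Nav3 (0.94). The nearest to Apln were Odf3l1 (0.97), Tubb2b (0.93) and Glis2 (0.92), and those to Esm1 were Cttnbp2 (0.92), the pericyte gene Rgs5 (0.91) and Sertad4 (0.90). For Dll4 they were Nedd1, Eva1a and Arid5a (0.92, 0.91 and 0.90), and for Angpt2 4931406H21Rik, Apoc1 and Tgfbrap1 (0.94, 0.92 and 0.91). They were picked as the highest of many genes over 12 arrays, and these values too have no p.

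Ligands and co-receptors of the same pathways were mixed. Of 13 other genes of VEGF, angiopoietin and apelin signalling, 7 were higher and 1 lower on the KO-labelled arrays, with a median log2 difference of 0.14, against 19.5% and 12.4% of all probe sets. Higher calls numbered 9 with each array centred, and 4 after quantile normalization or with the replicate number as a block. Angpt1, the Tie2 ligand that steadies vessels and is made by cells around them, had the largest difference. It lay at 7.59, 7.80 and 8.01 on the KO-labelled arrays and at 6.32, 6.79 and 7.02 on the WT-labelled ones, so that it was 2.07-fold higher (1.05 ± 0.12 SE, limma adjusted p = 2.44e-05).

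Angpt1 and Angpt2, which act in opposite ways on Tek, were thus both higher, and Angpt4 was lower (-0.22 ± 0.06 SE, adjusted p = 0.0206). The call of Angpt4 was lost with centred arrays and after quantile normalization (adjusted p = 0.0506 and 0.0546). Tie1, the partner of Tek, rose by 0.12 ± 0.03 with levels of 9.04 to 9.09 against 8.88 to 9.02, a call that was lost after quantile normalization (0.05, adjusted p = 0.259). Flt4, the receptor of VEGF-C, rose by 0.49 ± 0.09 (adjusted p = 0.00114) and the VEGF co-receptor Nrp1 by 0.27 ± 0.05 (adjusted p = 0.00137), both without overlap.

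Of the VEGF ligands, Pgf, which binds Flt1 but not Kdr, rose by 0.41 ± 0.11 (SE, limma adjusted p = 0.00892). Vegfa lay at 9.87, 10.07 and 10.12 on the KO-labelled arrays and at 9.40, 9.85 and 9.98 on the WT-labelled ones. Its log2 difference of 0.25 ± 0.09 and that of Vegfc of 0.14 ± 0.05 passed narrowly (limma adjusted p = 0.0414 and 0.0441), and the calls were lost in 12 and 14 other settings. Without WT6 the values were 0.17 and 0.12 (adjusted p = 0.0432 and 0.0829). Vegfb (0.13), Vegfd (-0.02), Nrp2 (0.35), Ptprb (-0.20) and the second apelin receptor ligand Apela (0.01) did not pass. Nrp2 passed in 5 other settings, with 0.46 and adjusted p = 0.00159 without the array labelled WT4, and Vegfb in 2.

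**Figure D4:**
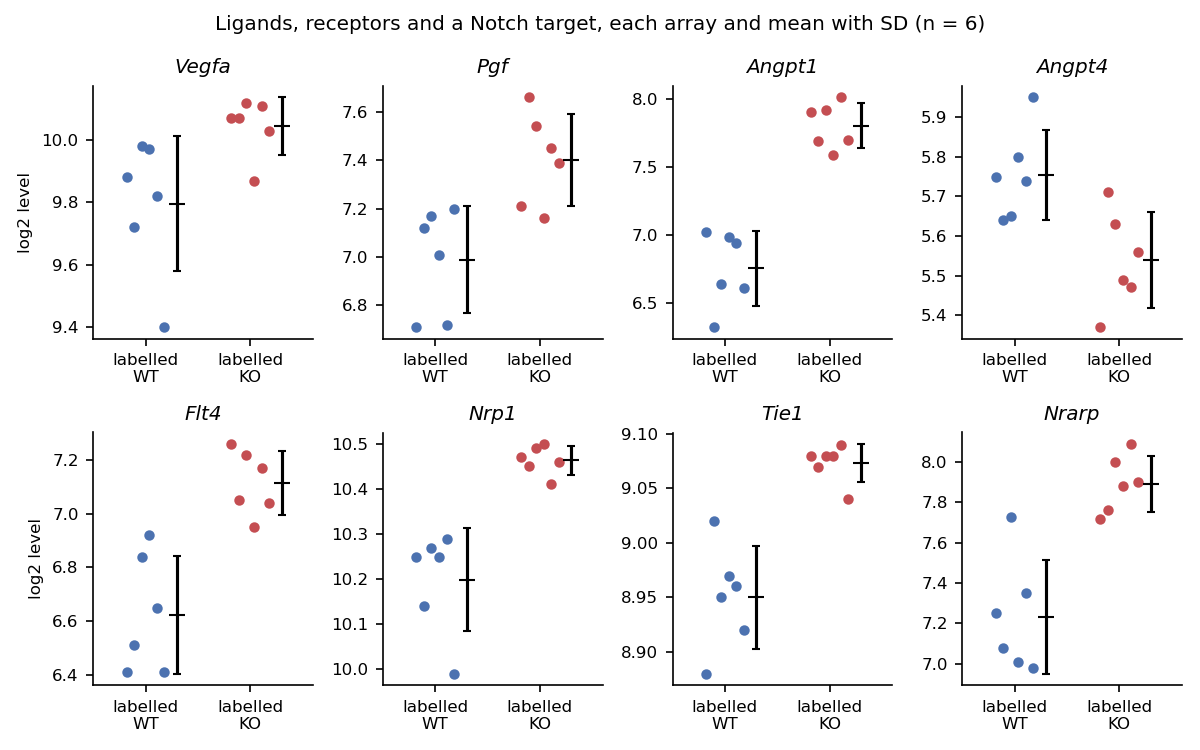
Log2 level (vertical axes, each with its own range) of 4 ligands, 3 receptors and the Notch target Nrarp on the WT-labelled (blue) and KO-labelled (red) arrays; points are arrays and bars give the mean and SD (n = 6). Angpt1 lies at 7.59 to 8.01 on the KO-labelled arrays and 6.32 to 7.02 on the WT-labelled ones, and Angpt4 is the gene that is lower.

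Of 14 Notch pathway genes of vessels, 3 were higher and 1 lower, with a median of 0.12. With each array centred 6 were higher, and after quantile normalization 2. Nrarp, a Notch target that feeds back on the pathway in sprouts, was 1.58-fold higher (0.66 ± 0.11 SE, limma adjusted p = 0.00065). Hey1, Hey2, Heyl and Hes1, also Notch targets, did not pass in the same fit. Their differences were 0.155, 0.12, 0.25 and 0.09 (limma adjusted p = 0.0958, 0.3335, 0.106 and 0.3575). Mfng, which modifies Notch receptors, rose by 0.45 ± 0.09 and the arterial ligand Efnb2 by 0.20 ± 0.06 (adjusted p = 0.00265 and 0.0222), the latter lost after quantile normalization (0.10, adjusted p = 0.136). Jag2 was lower, at 8.33, 8.53 and 8.72 against 8.49, 8.88 and 9.04. The share of higher genes in this list, 3 of 14, was near that of all probe sets.

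Of 17 other tip cell and sprouting genes, 7 were higher and 0 lower, with a median of 0.22, against 19.5% and 12.4% of all probe sets. Fscn1, which bundles actin in filopodia, differed by 0.77 ± 0.16, and the semaphorin receptor Plxnd1 by 0.69 ± 0.12 (SE, limma adjusted p = 0.00253 and 0.000745). The netrin receptor Unc5b and the basement membrane gene Nid2 followed at 0.62 ± 0.12 and 0.60 ± 0.10. Fscn1 reached 9.85 on its lowest array labelled WT and 11.11 on the highest, below the 11.28 to 11.45 of the KO-labelled arrays.

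The wider endothelial list had more higher than lower calls. Of 28 other general genes, 14 were higher and 2 lower, against 19.5% and 12.4% of all probe sets. Their median was 0.23, and after quantile normalization 12 were higher and 3 lower. Leaving out 1 array gave 1 lower without KO1, KO4, KO5 or WT2, and 3 lower without WT4, WT5 or WT6. The transcription factor Sox7 was 1.64-fold higher (0.72 ± 0.12 SE, limma adjusted p = 0.000442). Myct1 and Ecscr differed by 0.52 ± 0.12 and 0.45 ± 0.10. Erg, an ETS factor that maintains endothelium, lay at 8.66 to 8.73 on the KO-labelled arrays and 8.05 to 8.47 on the WT-labelled ones (0.45 ± 0.06 SE, adjusted p = 0.000102). The lower genes were Plvap, of the diaphragms of fenestrated vessels (-0.27 ± 0.08), and Cyyr1 (-0.23 ± 0.07), named here after their values were seen.

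Of 11 measured arterial, venous and lymphatic genes, 3 were higher and 1 lower, with a median of 0.13, shares near the 19.5% and 12.4% of all probe sets. After quantile normalization the counts were 1 and 1, and with each array centred 5 and 1. Lyve1, of lymphatic vessels and some macrophages, rose by 0.71 ± 0.21, Gja4 by 0.21 ± 0.05 and Pdpn by 0.18 ± 0.05 (these last lost after quantile normalization), while the arterial Sema3g was lower (-0.23 ± 0.06 SE, limma adjusted p = 0.00628). Prox1, which sets lymphatic identity, had -0.02 ± 0.08 (adjusted p = 0.865).

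**Figure D5:**
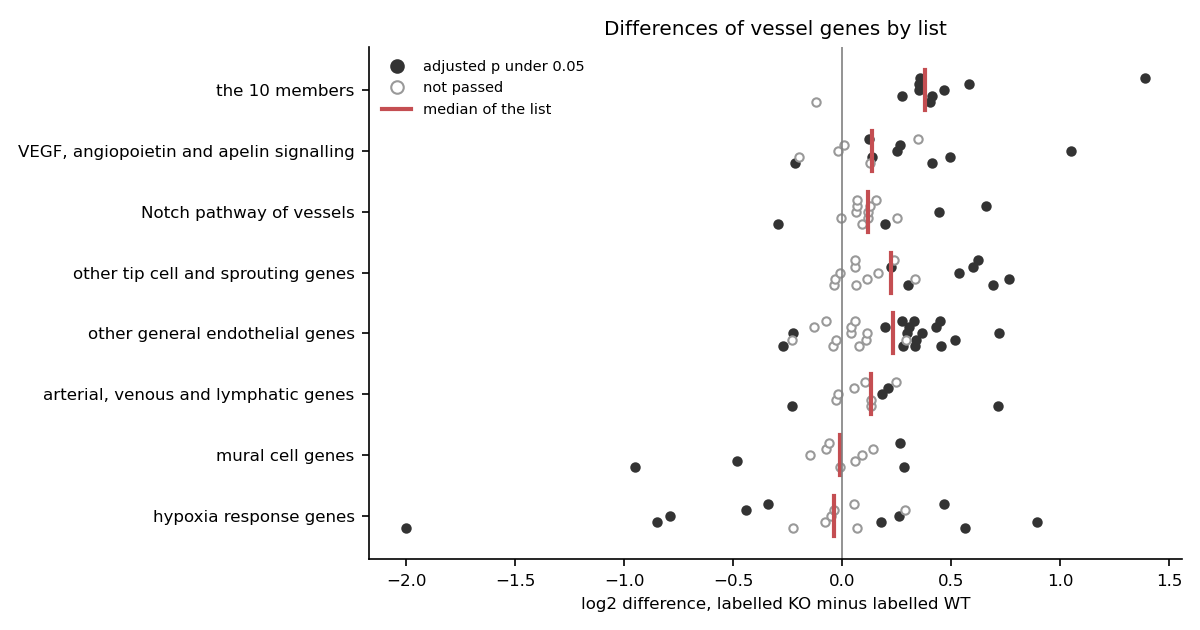
Log2 difference, labelled KO minus labelled WT (horizontal axis), of each measured gene of the 10 members and 7 related lists; filled points passed at an adjusted p of 0.05, open points did not, and the red line is the median of the list. The medians run from 0.38 for the 10 members to -0.04 for hypoxia response genes, where Egln3 lies at -2.0.

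Of 11 genes of the mural cells that wrap vessels, 2 were higher and 2 lower, near the shares of all probe sets, and the median was -0.01, which turned to 0.04 with each array centred. Kcnj8 and Rgs5 of pericytes rose by 0.29 ± 0.05 and 0.27 ± 0.06 (SE), while the pericyte proteoglycan Cspg4 and the smooth muscle gene Cnn1 were lower (-0.49 ± 0.11 and -0.95 ± 0.20, limma adjusted p = 0.00339 and 0.0023). Of 17 hypoxia response genes 5 were higher and 5 lower, against 19.5% and 12.4% of all probe sets. Their median was -0.04, which turned to 0.01 with each array centred. After quantile normalization 5 were higher and 7 lower. Lower calls numbered 3 without KO4, KO6 or WT6. P4ha2, a collagen prolyl hydroxylase, rose by 0.90 ± 0.09, and Egln3 (-2.0 ± 0.17), Hif3a (-0.85 ± 0.27) and Ddit4 (-0.79 ± 0.23) were lower. The call of Hif3a was lost in 5 other settings, among them without KO4, KO6 or WT6 (adjusted p = 0.0524, 0.0503 and 0.0577).

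Markers of some other cell types differed too, read here against 19.5% higher and 12.4% lower of all probe sets. Adipocyte markers were higher in 5 of 7 cases (3 of 7 without KO2, KO4, KO6, WT5 or WT6), with a mean level of 8.01 to 9.999 on the KO-labelled arrays and 7.88 to 8.86 on the WT-labelled ones. Macrophage markers were higher in 4 of 5 (8.63 to 8.78 against 8.12 to 8.54), and fibroblast markers in 4 of 5 with 1 lower, lost without KO2 or KO5 (11.50 to 11.68 against 11.09 to 11.39). Muscle markers were lower in 3 of 5 (12.98 to 13.12 against 13.13 to 13.24), but in 1 with each array centred and in 2 after quantile normalization. Platelet markers had 1 higher and 1 lower of 4 (7.08 to 7.44 against 7.00 to 7.99), mural markers 2 and 1 of 8 (9.90 to 10.12 against 9.88 to 10.12), and none of 5 neutrophil or 2 erythroid markers passed. Neutrophil markers averaged 5.64 to 6.10 against 5.82 to 9.23 and erythroid markers 8.11 to 8.94 against 7.11 to 10.39, with the highest of both on WT4. Without that array 4 of the 5 neutrophil markers were lower, both erythroid markers were higher, and 2 of the 4 platelet markers were higher.

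On the array labelled KO5 the adipocyte markers (8.01) lay between WT-labelled values, and 8 of the 10 endothelial genes on it lay above every array labelled WT. KO5 also had the lowest value of its group for 5 of the 10 genes. Its mean of the endothelial markers (10.13) was the lowest of the KO-labelled arrays. With the adipocyte level as a covariate, Apln (1.39, limma adjusted p = 0.00351), Dll4 (0.60, adjusted p = 0.0185) and Pecam1 (0.34, adjusted p = 0.0486) passed. Esm1, Angpt2, Aplnr, Kdr, Cdh5 and Tek did not, with differences of 0.30, 0.25, 0.39, 0.26, 0.29 and 0.31 and adjusted p of 0.0750 to 0.350. The adipocyte level was itself 1.33 higher on the KO-labelled arrays in the mean, so it and the group are hard to separate. Under it the median difference was 0.45 for the tip cell genes and 0.30 for the general ones, against 0.50 and 0.35 without. Of 21789 probe sets, 2770 were then called in either direction. Higher and lower calls were 2 and 0 of the 13 signalling genes and 1 and 0 of the 14 Notch genes. They were 2 and 0 of the 17 other tip cell genes. They were 5 and 0 of the 28 other general genes, 0 and 0 of the 11 arterial, venous and lymphatic genes, 1 and 2 of the 11 mural genes, and 4 and 1 of the 17 hypoxia genes. Fscn1, Plxnd1, Unc5b and Nid2 then had adjusted p of 0.129, 0.0832, 0.0841 and 0.0587, and Hif3a and Ddit4 0.399 and 0.244. The part of macrophages and fibroblasts in the differences was not tested.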

How the data were processed

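Quadriceps RNA of 12 mice aged 7 days was hybridized to Affymetrix Mouse Gene 1.0 ST arrays, 1 per mouse, 6 labelled WT and 6 labelled KO. By the methods, the authors extracted images with GCOS and made normalized gene level values with Affymetrix Power Tools. Which version, algorithm and genome build they used is not given in the sources used here. Deposited values ran from 3.11 to 14.02 and were from this read as log2 levels, the table naming no scale.

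Of 35556 rows, 21789 had 1 symbol in the platform annotation and were tested, 1621 had several and 12146 were unnamed. Symbols were updated through RefSeq (GRCm38.p6), which matched 21698 probe sets. For each gene the probe set with the highest mean stood in. Differences, labelled KO minus labelled WT, were fitted with lmFit and eBayes of limma 3.58.1 in R 4.3.3, without covariates (the tissue came from littermate pairs, and the methods do not say whether their test was paired), and adjusted by Benjamini-Hochberg over all probe sets at 0.05. Nothing separates tissue from hybridization spread, so p-values measure the spread between arrays.

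The members and lists were chosen with earlier results of these data known. Named genes are the 10 members, Cfl2, the VEGF, angiopoietin and apelin list, up to 4 called genes with the largest change of each other list, and the 3 genes of highest correlation with the general mean and each tip cell gene, among those with a within-group SD of at least 0.1. Prox1, Hey1, Hey2, Heyl and Hes1 were named after their values were seen. On simulated data (21789 probe sets, 6 arrays against 6) with 50 planted differences of each size, the fit found 23 at 0.25, 48 at 0.5, 49 at 1 and all 50 at 2, beside 6 false calls. The planted changes were a far smaller share than the 31.9% of real probe sets called, so these counts do not carry over to these data. Alternatives were other scalings, filters, variance settings, weights, covariates, a replicate block, the methods' t-test and each array left out.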

Additional observations from a re-analysis of the deposited data

Results flagged for a closer look

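Kdr on the array labelled WT6 was 9.06, and its gap to the next array of that group took up 0.63 of the range of the group, just above the limit for a group of 6. It was the only flag among 22 groups of values examined, and chance flags about 1 group in 20. Without that array the log2 difference of Kdr was 0.31 (adjusted p = 0.00257).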

How the results depend on the processing

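With the adipocyte level as a covariate 2770 probe sets changed instead of 6952, and 3 of the 10 members were higher. The number of members lower was 1 instead of 0 after quantile normalization and without the array labelled KO1, in both cases Flt1. Leaving out 1 array at a time gave 0 to 1 members lower, 8 to 9 higher, a median of 0.45 to 0.52 for the tip cell genes and 0.30 to 0.39 for the general genes. Esm1 was -0.064 with the general endothelial level as a covariate. Vegfd, not called, was 0.029 with centred arrays, 0.072 with array weights and -0.08 to 0.072 leaving out 1 array, and Apela, not called, was -0.00376 with array weights, -0.12 with the adipocyte covariate and -0.01 to 0.038 leaving out 1 array. The causes were not tested.

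With the replicate number as a block 6074 probe sets changed and 8 members were higher, and the Esm1 call was lost (adjusted p = 0.0897). Arrays with the same number had deviations that correlated at -0.22 to 0.17 over 6 pairs, and 2 of 6 KO-labelled arrays correlated best with their own number, and the labels tie no number to a litter, so the numbers were not taken to pair the arrays. Averaging the probe sets of a gene left the members as they were, since each had 1. No medians were taken from the fit without dim probe sets, which among the members left Esm1 untested. The methods' t-test gave 9003 probe sets under 0.05 and 6342 after Benjamini-Hochberg adjustment. Of 50 planted differences of 0.25 the fit found 23. The simulation had a far smaller share of changed probe sets than these data, so it does not give the chance of calling Esm1.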
